A study of Arabidopsis thaliana with 6 samples.

Results

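Each probe set of the ATH1 array has a number, and the 150 with the lowest numbers form a block among the 22746 Arabidopsis probe sets analysed. The block was taken by number alone, whatever the suffix of the probe set name, and no measured value entered the choice. It was expected to hold the probe sets of the chloroplast and mitochondrial genomes, but the array annotation bore this out only in part. Of the 150 members, 77 were annotated to the chloroplast genome and 13 to the mitochondrial genome. A further 5 carried loci of the copy of the mitochondrial genome that lies in chromosome 2, and 10 were ordinary nuclear genes of chromosome 2, numbered between 245029 and 245044. The remaining 45 had no gene name here. No probe set outside the block was annotated to the chloroplast genome. The mitochondrial label was given only to block members, so mitochondrial probe sets outside the block were not looked for. Just inside its upper limit lie psbA, matK, rps16 and psbK. Just outside lie 245051_at and 245052_at, both without a name here, at 4.61 to 5.50 and 1.63 to 2.06 over the 6 arrays.

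Chloroplasts and mitochondria keep small genomes of their own. The chloroplast genome codes for core subunits of the photosystems, the cytochrome b6f complex, the ATP synthase and an NADH dehydrogenase-like complex, for the large subunit of Rubisco, and for part of the plastid's own RNA polymerase and ribosome. Nuclear genes supply the other subunits, so each of these complexes is built from both genomes. Many chloroplast genes lie in clusters that are transcribed together and then processed. Each leaf cell holds many chloroplasts with many genome copies each, and mesophyll cells are the main photosynthetic cells of the leaf, whereas bundle sheath cells form the layer around the veins. Stable organelle transcripts lack the long poly(A) tails of nuclear messenger RNAs.

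The plants were Arabidopsis thaliana of ecotype Landsberg that carried green fluorescent protein under the SCARECROW promoter (SCR:GFP), and they received no treatment. Bundle sheath cells (BSCs) were picked by hand as fluorescent protoplasts of small diameter, and mesophyll cells (MCs) as larger protoplasts without fluorescence, so both cell types came from the same transgenic leaves. Each of the 3 BSC and 3 MC samples was a pool of 20 protoplasts whose RNA was amplified in several rounds before hybridization. Array numbers are those of the labels, 3, 5 and 7 for BSCs and 4, 6 and 8 for MCs. Values are log2 of the normalized expression level, written log2(NREL), and a difference of 1 is a change by a factor of 2. Which primers started the amplification is not given in the sources used here, and how evenly it copied RNA without a poly(A) tail was not tested. In pooled cells, fewer organelles per cell, fewer transcripts per organelle and less RNA per cell cannot be told apart.

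The arrays did not share one distribution of values. BSC array 7 stood apart in one direction, and BSC array 3 and MC array 6 in the other. Of the 22596 probe sets outside the block, 0.288% reached a log2(NREL) of 5 on BSC array 7. The share was 4.85% on BSC array 3 and 4.86% on MC array 6, and 1.62% to 2.51% on the rest. The spike-in control bioB read 9.14 on BSC array 7, 5.53 on BSC array 3 and 5.30 on MC array 6. It read 6.99 to 7.32 on the rest. On BSC array 7 the ubiquitin control probe set at the 3′ end exceeded the one at the 5′ end by 0.90, against 3.63 to 4.50 on the others. The same gap for GAPDH was 0.35 on BSC array 7 and 1.10 to 2.39 on the others. The control for the 25S ribosomal RNA was 11.34 there and 11.85 to 12.47 elsewhere. Results that rest on BSC array 7 are therefore given with and without it. The labelled cell types could not be checked against markers, because 16 of 18 markers listed for leaf cell types had no named probe set here. The 2 others, FAMA of guard cells and SWEET11 of the phloem, spanned 1.81 to 2.35 and 2.43 to 3.80.

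As one group the block lay far above the rest of the array in both cell types. A mean log2(NREL) of 2 or above, the level that the study used for expressed genes, was reached by 115 of the 150 members in BSCs (76.7%) and by 115 in MCs. Among all other probe sets the shares were 49.5% and 48.3%. At a mean of 3.5 or above there were 63 members in BSCs (42%) and 67 in MCs (44.7%), against 6.80% and 7.19% of the others. At 5 or above there were 42 members (28.0%) and 49 (32.7%), against 1.93% and 2.31%. Most members that reached a level did so in both cell types. At 5 or above, 41 members reached it in both, 8 in MCs only and 1 in BSCs only. Without BSC array 7 the BSC counts at these levels were 112, 66 and 49. The shares carry no test, since the brightness of a probe set depends on its probes as well as on its transcript.

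At the level of 5 nearly all of these members were chloroplast genes. Of the 42 members at a mean of 5 or above in BSCs, 40 were chloroplast genes, and of the 49 in MCs, 44 were. At the level of 2 they were 68 of the 115 in BSCs and 71 of the 115 in MCs. The mitochondrial genes supplied 1 at the level of 5 in each cell type, cox2. The median of the 77 chloroplast genes was 6.33, 5.28 and 3.12 on BSC arrays 3, 5 and 7 and 4.70, 6.83 and 5.44 on MC arrays 4, 6 and 8. On every array this was above the upper quartile of the probe sets outside the block, which lay between 2.34 and 2.43. The 13 mitochondrial genes had medians of 2.20 to 3.54 over the 6 arrays, and the 45 members without a name had medians of 1.84 to 2.20, close to the 1.88 to 2.06 of the probe sets outside the block.

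**Figure D1:**
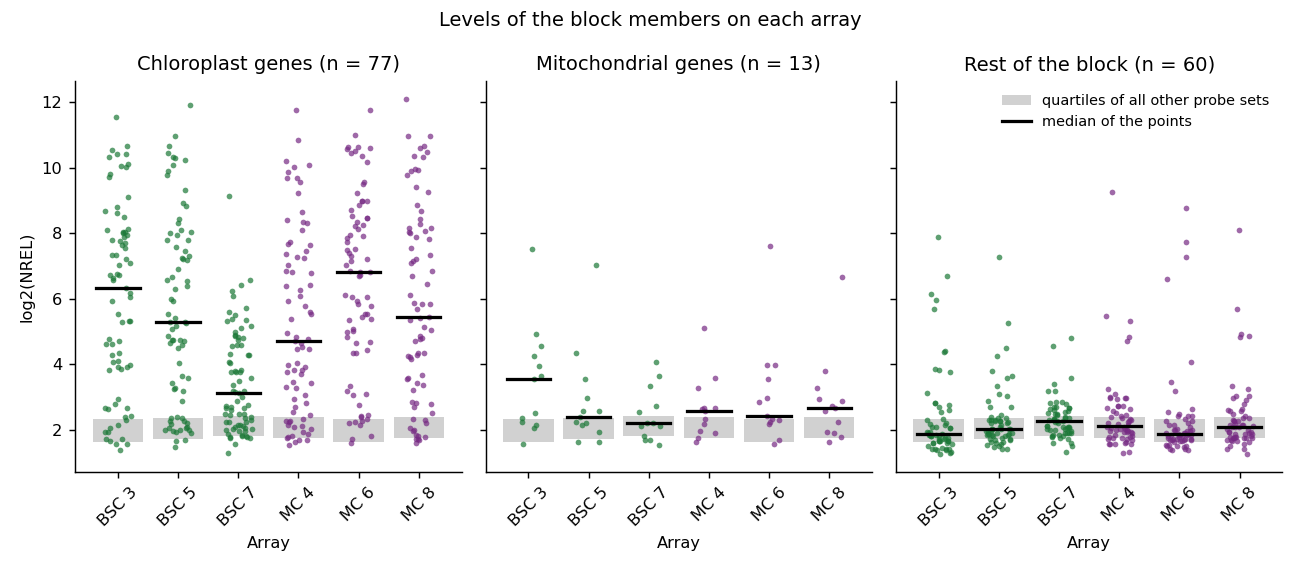
Each point is 1 probe set of the block on 1 array (x axis, BSC arrays green and MC arrays purple), and the y axis gives its log2(NREL). Grey boxes span the quartiles of the 22596 probe sets outside the block and black lines are medians: the median of the chloroplast genes lies above the box on every array and is lowest on BSC array 7, at 3.12.

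The probe set of psbA, which codes for a reaction centre protein of photosystem II with rapid turnover in light, had the highest value of all 22746 probe sets on each of the 6 arrays. It read 11.53, 11.92 and 9.12 on BSC arrays 3, 5 and 7 and 11.77, 11.75 and 12.10 on MC arrays 4, 6 and 8. On the 5 arrays other than BSC array 7 it was at 11.53 or above. Within the block, the next highest means over the 6 arrays were those of psaA at 9.76, psbD at 9.61, atpH at 9.61, ndhJ at 9.59, rps7 at 9.52, psbB at 9.48, psbC at 9.46, rpl2 at 9.0 and atpA at 8.95. With psbA, all 10 are chloroplast genes. These ranks describe signal and do not order the transcripts by amount. Among the 50 highest probe sets of an array, 11, 13 and 9 were block members on BSC arrays 3, 5 and 7, and 16, 13 and 23 on MC arrays 4, 6 and 8. On MC array 8 the block supplied 8 of the 10 highest, and on BSC array 7 it supplied 2.

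The median percentile rank of the chloroplast genes among all probe sets was 92.8 on BSC array 7 and between 97.5 and 98.6 on the other 5 arrays. The chloroplast genes were therefore lower on BSC array 7 in rank as well as in level, and 9 of them were still among its 50 highest probe sets. Not every chloroplast gene was bright. A mean over the 6 arrays below 2.5 was found for 13 of the 77, among them psbL and ndhF, with ranges of 2.05 to 2.30 and 1.61 to 2.00. Of the 77, 12 were at 5 or above on every array and 23 on none.

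BSC array 7 set most of the spread of the chloroplast genes. It was the lowest of the 6 arrays for 51 of the 77 (66.2%), and MC array 6 was the highest for 47 (61.0%). For the 54 chloroplast genes that reached 5 on at least 1 array, BSC array 7 was the lowest for 46 (85.2%). The same held for 68.3% of the 1469 probe sets outside the block that reached 5 on at least 1 array. Few probe sets reached 5 on BSC array 7 itself, so nearly all of these entered through another array. MC array 6 was the highest for 64.8% of the 54 chloroplast genes and for 47.0% of the 1469 probe sets outside the block. Over all 22596 probe sets outside the block, BSC array 7 was the lowest for 14.1% and the highest for 33.7%, and MC array 6 was the highest for 12.9%. Where the mean over all arrays was 3.5 or more, BSC array 7 lay below the median of the other 5 arrays by a median difference of -3.39 for 56 chloroplast genes and -1.22 for 1547 others. Of all 77 chloroplast genes, 42 (54.5%) lay at least 2 below the median of the other arrays on BSC array 7. On MC array 4 there were 10, on MC array 8 there was 1, and on BSC arrays 3 and 5 and MC array 6 there were none.

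The distance of BSC array 7 from the others differed in size between chloroplast genes. It was widest for atpH, which codes for the ring subunit of the ATP synthase and read 4.55 there against 10.12 to 10.97 on the other arrays. The probe set of psaB, a reaction centre protein of photosystem I, read 3.84 against 8.66 to 10.18. For atpE, the epsilon subunit of the ATP synthase, the values were 2.24 and 7.74 to 9.23. Other chloroplast genes hardly differed there. The gene psbE, a subunit of cytochrome b559 in photosystem II, read 6.57 on BSC array 7 and 6.81 to 7.40 on the others. For rpoC2, a subunit of the plastid RNA polymerase, all 6 values lay between 4.61 and 4.84, BSC array 7 included at 4.82. The ribosomal protein gene rpl23 spanned 5.09 to 6.06. These 3 were the only ones of the 56 chloroplast genes with a mean of at least 3.5 whose 6 arrays lay within 1 (5.36%), against 165 of 1547 probe sets outside the block (10.7%). In turn, 42 of the 56 (75%) had a range above 3, against 51.6% of the others.

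MC array 4 had low values for a smaller set. The 10 chloroplast genes that lay at least 2 below the median of the other arrays there were ndhE, ndhD, psbF, petL, petG, psbT, atpB, cemA, psbI and atpF, and all 10 were among the 42 that lay as far below on BSC array 7. The genes psbF, psbE, petL and petG follow each other on the chloroplast genome. On MC array 4 they read 3.72, 6.81, 1.82 and 2.55, and on BSC array 7 they read 3.76, 6.57, 1.78 and 2.29. On both arrays psbE alone of these neighbours stayed near its level elsewhere. Over the probe sets outside the block, 0.398% lay at least 2 below on MC array 4, against 13% of the chloroplast genes. The 2 shares are not at a like level. On MC array 4 the probe sets outside the block had a median of 2.01 and a lowest value of 1.11, so most had little room to lie that far below.

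**Figure D2:**
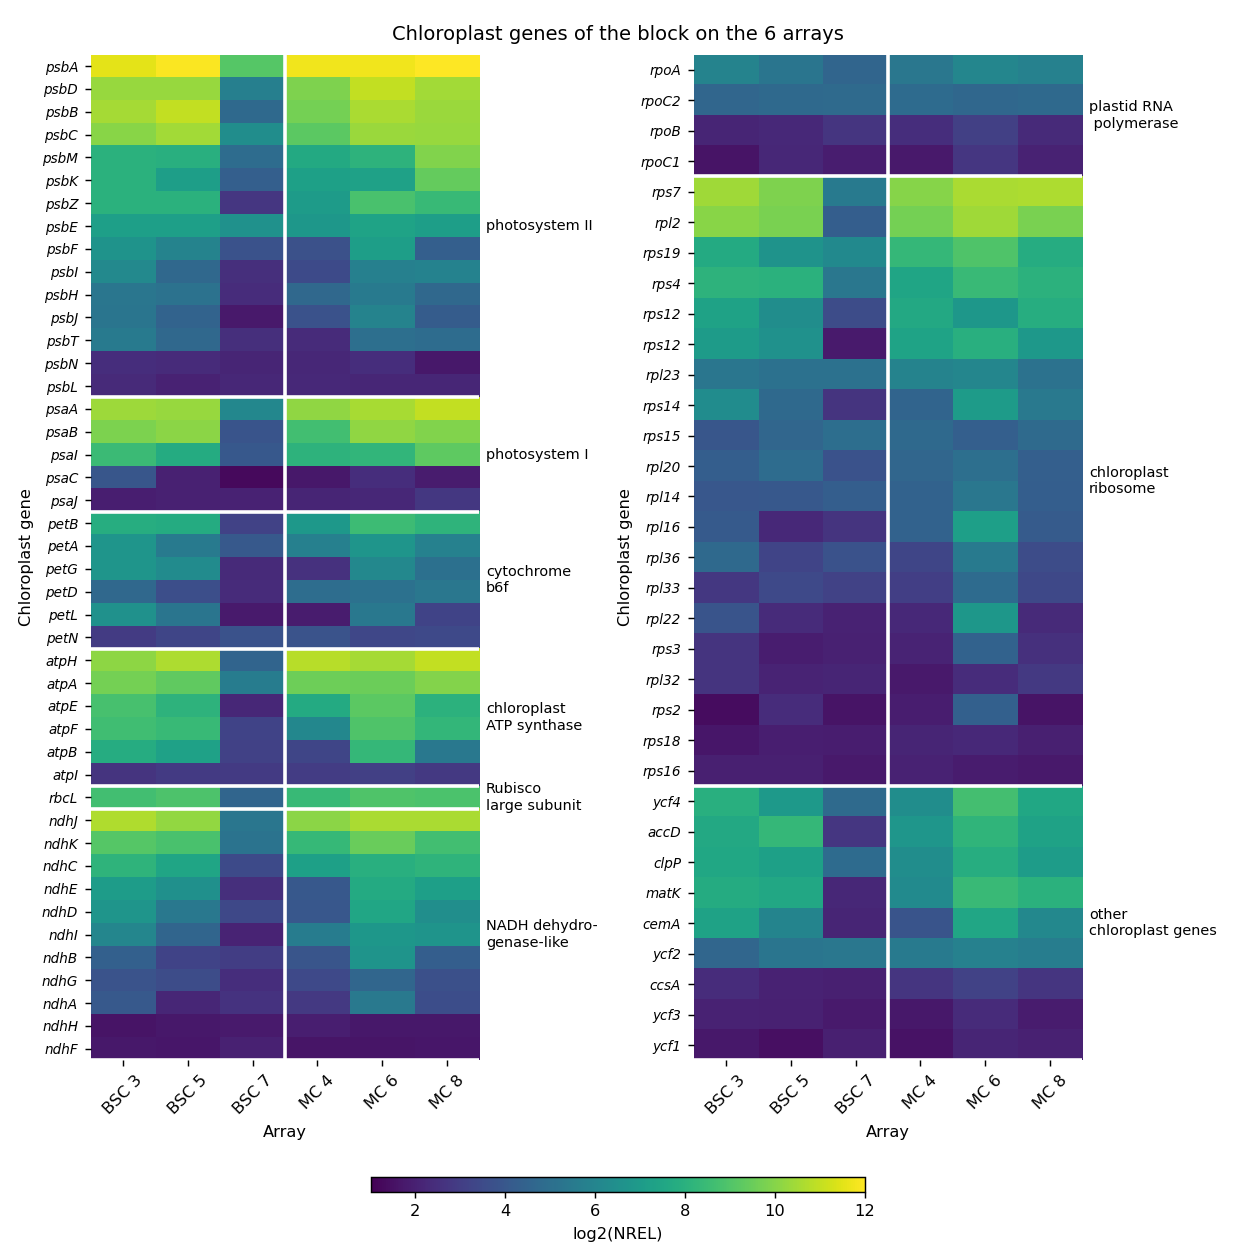
Each row is a chloroplast probe set of the block, grouped by role and ordered by its mean, and each column is an array; colour gives log2(NREL) from 1 to 12. BSC array 7 is dark for most bright rows, such as atpH at 4.55, but not for psbE at 6.57, and MC array 4 is dark for petL, petG and atpB.

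The BSC and MC values were tested with limma, which fits a linear model to each probe set and moderates its variance by that of the others, over all 22746 probe sets. A member is called lower or higher where its unadjusted p is below 0.05 and its fold change is at least 1.5, the thresholds of the study. By this rule 4 of the 150 members were called, all of them chloroplast genes and all lower in BSCs. Over the whole array 114 probe sets were called (0.501%), 82 of them lower in BSCs (0.361%). Without BSC array 7 there were 6, of which 2 were higher in BSCs, and 3 of the 6 were among these 4. The calls among the 22596 other probe sets rose in the same step from 110 to 412, of which 333 were higher in BSCs. Adjusted by the Benjamini-Hochberg method over all probe sets, the limma p was 1 for each of the 4, so the calls rest on the unadjusted threshold. An exact permutation of 3 arrays against 3 cannot give a p below 0.1.

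The clearest of the 4 by p was ccsA, which codes for a protein that attaches heme to c-type cytochromes in the chloroplast. Its values were 2.39, 2.07 and 1.98 on BSC arrays 3, 5 and 7 and 2.70, 3.19 and 2.69 on MC arrays 4, 6 and 8. The groups did not overlap, although all 6 values were below 3.5. On BSC arrays 5 and 7 ccsA was close to the medians of the probe sets outside the block, 1.97 and 2.06. On the MC arrays it lay above their upper quartiles of 2.34 to 2.40. The difference of BSCs minus MCs was -0.71 (SE 0.19, unadjusted p = 0.0107 in limma), and it lay between -0.83 and -0.55 when single arrays were left out. The call held in 5 of these 6 fits and was lost without MC array 6.

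Second came rps19, a protein of the small chloroplast ribosomal subunit. In BSCs it read 7.71, 6.65 and 6.24 and in MCs 8.32, 8.99 and 7.82, in the order of the array numbers. The groups did not overlap, with means of 6.87 ± 0.76 and 8.37 ± 0.58 (SD, n = 3 each). The difference was -1.51 (SE 0.47, unadjusted p = 0.0194 in limma) and the call held in 3 of 6 fits that left out an array, with values of -1.93 to -1.19. It was -1.19 and no longer called without BSC array 7, and it was also lost without BSC array 5 and without MC array 6. Quantile normalization of the deposited values gave -0.62, also without a call.

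For petD, a subunit of the cytochrome b6f complex, the BSC arrays read 4.70, 3.64 and 2.35 and the MC arrays 4.95, 5.09 and 5.36. The BSC arrays spread widely, the MC arrays lay close together, and BSC array 3 was only just below MC array 4. The difference was -1.57 (SE 0.58, unadjusted p = 0.0372 in limma) and held its call in 2 of 6 fits without 1 array. Leaving out BSC array 7 gave -0.96, still called, whereas leaving out BSC array 5 or any 1 of the MC arrays ended the call.

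The last was ycf2, a long reading frame in the inverted repeat whose product has been placed at the chloroplast protein import machinery. Its probe set detects both copies. It read 4.61, 5.29 and 5.35 in BSCs and 5.53, 5.84 and 5.68 in MCs, and here BSC array 7 was the highest of the BSC arrays. The difference was -0.60 (SE 0.23, unadjusted p = 0.0387 in limma), near the fold threshold, and was -0.73 without BSC array 7. Quantile normalization of the deposited values turned its direction, to 0.07. Without BSC array 3, or without any 1 of the MC arrays, its call was lost, with a value of -0.37 without BSC array 3.

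**Figure D3:**
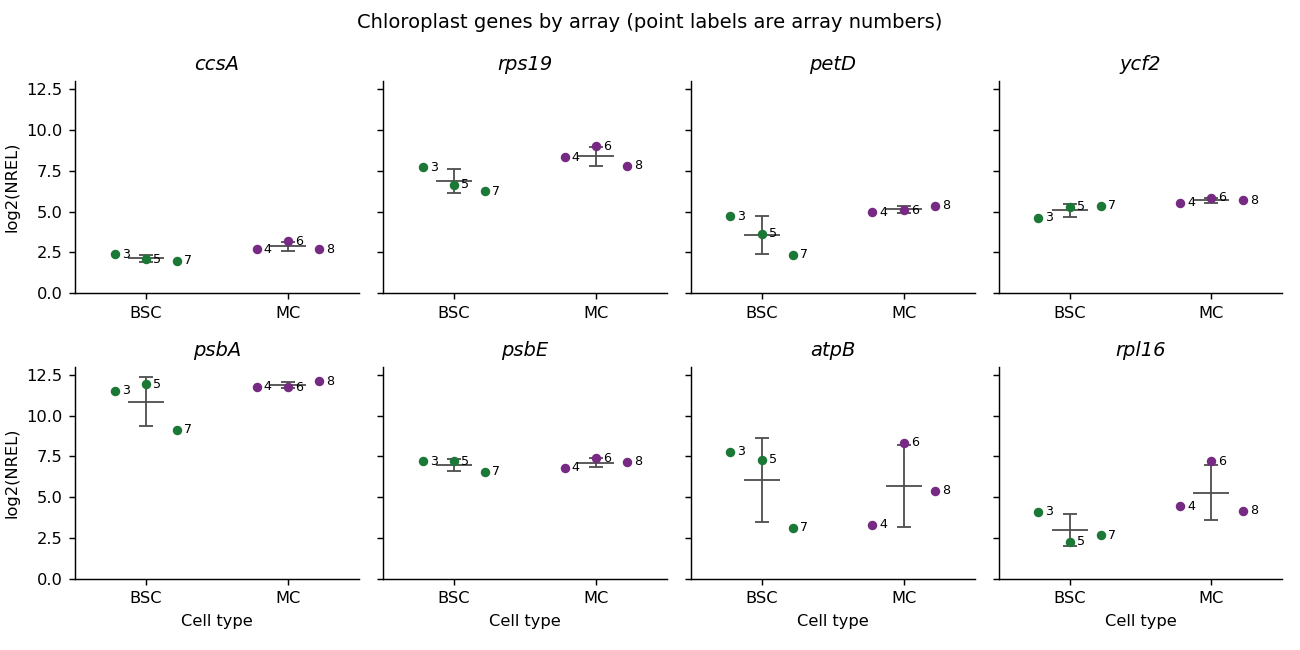
Points are single arrays, numbered, and bars give the mean ± SD of 3 arrays for each cell type (x axis) on the log2(NREL) scale (y axis). In the upper row, the 4 genes called lower in BSCs have no BSC point above an MC point; in the lower row psbA and atpB show the low BSC array 7, psbE is nearly level, and rpl16 is highest on MC array 6.

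Counting groups that did not overlap gave 10 members with all BSC arrays below all MC arrays and 0 with all BSC arrays above. Over all probe sets the shares were 2.85% below and 3.14% above. In the block they were 6.67% and 0%. Among the 10 were, besides the 4 called genes, psaJ, rps18, rpl16, nad9 and 2 members without a name, 244979_at and 245027_at. The largest of these differences was that of rpl16, a protein of the large chloroplast ribosomal subunit, with 4.10, 2.26 and 2.66 in BSCs and 4.46, 7.21 and 4.16 in MCs. Its difference was -2.27 (SE 0.94, unadjusted p = 0.0535 in limma), and MC array 6 lay far above all the others. Without MC array 6 the difference was -1.30.

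Most chloroplast genes had a lower mean in BSCs without passing the test. Of the 77, 68 (88.3%) had a lower mean in BSCs, against 45.8% of the probe sets outside the block, and the median difference was -0.81. Most probe sets outside the block were dimmer, and bright ones leaned the same way. Where the mean reached 3.5 in BSCs or MCs, 91.7% of 60 chloroplast genes and 61.1% of 1848 others had a lower mean in BSCs. The median differences there were -1.03 and -0.19. For the whole block the median was -0.14 and for all other probe sets 0.01, and without BSC array 7 these were -0.06 and -0.03. A fold change of at least 1.5 towards lower values in BSCs was found for 48 chloroplast genes, and 44 of these had a p above 0.05. For atpH, for example, the difference was -2.32 with a 95% confidence interval of -6.37 to 1.72. The lean rested largely on BSC array 7. Without it, 45 of the 77 (58.4%) had a lower mean in BSCs, against 58.1% of the probe sets outside the block, and the median difference was -0.10. These shares are again not at a like level. At a fold change of at least 1.5 in that fit, 14 chloroplast genes were lower and 8 higher in BSCs. Of the probe sets outside the block, 546 were lower and 1343 higher. Leaving out any other array kept at least 63 of the 77 negative, with medians from -1.36 to -0.36, the latter without MC array 6. Chloroplast genes share an array, and many share a transcription unit, so they are not independent of each other and the counts carry no test.

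**Figure D4:**
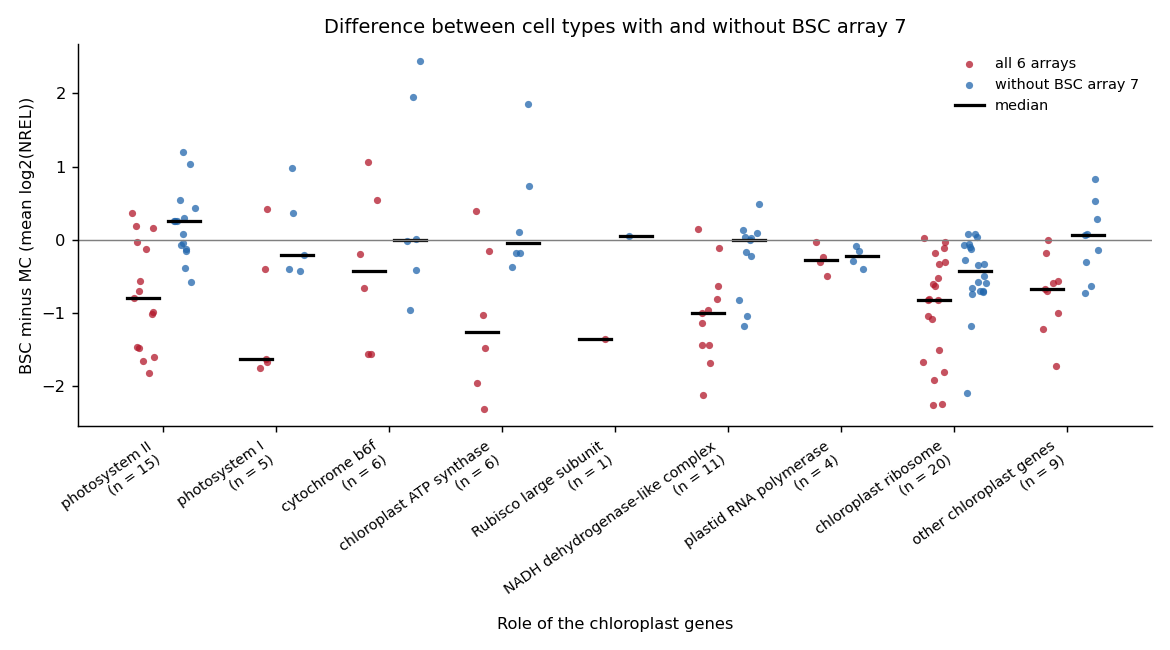
Each point is the difference of BSC minus MC means of log2(NREL) for a chloroplast gene (y axis), by role (x axis), over all 6 arrays (red) and without BSC array 7 (blue); black lines are medians. Without BSC array 7 the median over all 77 moves from -0.81 to -0.10, while the ribosomal protein genes keep a median of -0.43.

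Photosystem II was represented by 15 genes, and none of them was called. Their median difference was -0.80 with 12 of 15 negative, and 0.25 with 6 of 15 negative without BSC array 7. The brightest after psbA were the reaction centre gene psbD and the core antenna genes psbB and psbC. For psbB the BSC arrays read 10.53, 10.97 and 4.74 and the MC arrays 9.68, 10.62 and 10.34, so that BSC arrays 3 and 5 were inside or above the range of the MC arrays. For psbC the BSC values were 10.03, 10.46 and 6.41 and the MC values 9.22, 10.34 and 10.31. The psbD probe set read 10.32, 10.30 and 5.73 in BSCs and 9.86, 10.99 and 10.48 in MCs. Of the BSC arrays of psbD, only array 7 lay outside the range of the MC arrays. When it was left out, the differences were 0.54 for psbB, 0.29 for psbC and -0.13 for psbD.

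Photosystem I had 5 genes with a median difference of -1.64, or -0.21 without BSC array 7. The reaction centre gene psaA read 10.41, 10.32 and 6.09 in BSCs and 10.19, 10.58 and 10.97 in MCs. For psaI, a small subunit, the BSC values were 8.48, 7.78 and 4.05 and the MC values 8.09, 8.25 and 9.25. The iron-sulphur subunit gene psaC was dim, at 1.29 to 2.45 on 5 arrays and 3.93 on BSC array 3, and gave the only positive difference of this group, 0.42 (SE 0.69).

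The 6 genes of the cytochrome b6f complex, which carries electrons between the photosystems, were divided. Besides petD, petB (cytochrome b6) had a difference of -1.57 (SE 1.36) and petA (cytochrome f) of -0.67 (SE 0.69), and their groups overlapped. The small subunit genes petL and petG went the other way. The petL probe set read 6.56, 5.28 and 1.78 in BSCs and 1.82, 5.39 and 3.23 in MCs, and petG read 6.75, 6.30 and 2.29 and 2.55, 6.12 and 5.05. Each was low on BSC array 7 and on MC array 4. The difference of petL, 1.06 (SE 1.47, 95% confidence interval -2.59 to 4.70), was the second largest positive one of the block, and became 2.44 without BSC array 7, a value that then set 2 BSC arrays against 3 MC arrays.

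Of the 6 genes of the chloroplast ATP synthase, 5 were bright and 5 had a lower mean in BSCs. The alpha subunit gene atpA read 9.70, 9.31 and 5.61 in BSCs and 9.56, 9.55 and 9.97 in MCs. For atpF, a stalk subunit, the values were 8.61, 8.42 and 3.20 and 6.09, 8.97 and 8.28. The beta subunit gene atpB was low on a second array too, with 7.79, 7.30 and 3.12 in BSCs and 3.30, 8.34 and 5.41 in MCs. Its neighbour on the chloroplast genome, atpE, was at 7.74 on that same MC array 4. The median of the group was -1.26, and -0.05 without BSC array 7. Rubisco's large subunit gene rbcL, which lies next to atpB, read 8.67, 8.93 and 4.58 in BSCs and 8.40, 8.98 and 8.87 in MCs. Its difference was -1.36 (SE 1.19) over 6 arrays and 0.05 without BSC array 7.

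The 11 genes of the NADH dehydrogenase-like complex, which works in cyclic electron flow, spanned dim and bright probe sets. The brightest were the neighbours ndhJ, ndhK and ndhC. The ndhJ probe set read 10.67, 10.23 and 5.32 in BSCs and 10.09, 10.60 and 10.61 in MCs. Only BSC array 7 was below 10. For ndhK the BSC values were 9.11, 8.84 and 5.18 and the MC values 8.35, 9.49 and 8.69, and for ndhC they were 8.14, 7.45 and 3.48 and 7.24, 7.96 and 8.17. A lower mean in BSCs was found for 10 of the 11 genes with a median of -1.0, and for 5 of 11 with a median of 0.00 without BSC array 7. The lowest value in the group was that of ndhI, -2.13 (SE 1.02, unadjusted p = 0.0836 in limma), with 6.04, 4.60 and 2.09 in BSCs and 5.61, 6.83 and 6.68 in MCs.

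Ribosomal protein genes held their lean better than the photosynthesis genes when BSC array 7 was left out, although this difference between roles was not tested. Of the 20 probe sets, 19 had a lower mean in BSCs with all arrays and 17 without BSC array 7, with medians of -0.82 and -0.43. The brightest were rps7 and rpl2, both in the inverted repeat, with rps7 at 10.42, 9.89 and 5.52 in BSCs and 10.01, 10.62 and 10.65 in MCs. The rpl2 probe set read 10.05, 9.77 and 4.29 in BSCs and 9.69, 10.44 and 9.77 in MCs. For rps4 the values were 8.11, 8.03 and 5.38 and 7.46, 8.46 and 8.05, so only BSC array 7 stood outside the range of the others. The probe sets 244939_at and 244940_at, both annotated to the split gene rps12, had differences of -1.67 (SE 0.98) and -2.25 (SE 1.41). On BSC array 7 they read 3.57 and 1.81.

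A stretch of neighbouring ribosomal protein genes showed MC array 6 apart from all the others, chosen here after its values were seen. The order on the chloroplast genome is rpl14, rpl16, rps3, rpl22, rps19. On MC array 6 rpl22 read 6.84, against 2.04 to 3.85 on the other 5 arrays, and rps3 read 4.44 against 1.90 to 2.65. For rpl16 it was 7.21 against 2.26 to 4.46. The gene rps2, which lies elsewhere, read 4.36 there and 1.38 to 2.40 on the others. Over the chloroplast genes, 11 lay at least 2 above the median of the other arrays on MC array 6 (14.3%), against 3.29% of the probe sets outside the block. These shares are not at a like level. A log2(NREL) of 3.5 was reached there by 79.2% of the chloroplast genes and by 10.2% of the probe sets outside the block. An excess of chloroplast genes on MC array 6 cannot be read from them. MC array 6 thus carried part of the lower BSC means of these genes, and without it the differences of rpl22, rps2 and rps3 were 0.47, 0.05 and -0.12.

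The plastid RNA polymerase genes differed little between the cell types. All 4 had a lower mean in BSCs, by -0.04 to -0.50, and BSC array 7 was the lowest array for 1 of them, rpoA. The rpoA probe set read 5.92, 5.27 and 4.58 in BSCs and 5.38, 6.04 and 5.84 in MCs. It was called lower in BSCs in 1 of the fits that left out an array. The rpoB and rpoC1 probe sets stayed between 2.15 and 3.08 and between 1.57 and 2.76. Both were dim, with little room to fall. None of their differences exceeded the spread between arrays.

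The other 9 chloroplast genes held 2 of the 4 calls, ccsA and ycf2. Lowest on BSC array 7 were ycf4, accD, clpP, matK, cemA and the dim ccsA, whereas ycf2 was lowest on BSC array 3. For ycf4, which assists the assembly of photosystem I, the BSC values were 7.94, 6.90 and 4.80 and the MC values 6.41, 8.71 and 7.55. The accD probe set, for a subunit of acetyl-CoA carboxylase in fatty acid synthesis, read 7.65, 8.31 and 2.73 and 6.78, 8.21 and 7.35. For clpP, a protease subunit, the values were 7.54, 7.25 and 4.85 and 6.40, 7.84 and 7.09, and for matK, a maturase for intron splicing, 7.75, 7.58 and 2.23 and 6.27, 8.47 and 8.01. The differences of these genes without BSC array 7 were -0.14, 0.53, 0.28 and 0.08.

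Of the mitochondrial genes none was called, and 5 of 13 had a lower mean in BSCs with a median difference of 0.03. This direction turned without BSC array 3, where 10 of 13 were lower with a median of -0.25. The single bright one was cox2, a subunit of cytochrome c oxidase, with 7.51, 7.02 and 4.08 in BSCs and 5.10, 7.62 and 6.65 in MCs. Its groups overlapped, and its difference of -0.25 (SE 1.09) became 0.81 without BSC array 7. The complex I gene nad7 was level over all 6 arrays, at 3.28 to 3.97. Several dim genes were higher on BSC array 3 than on any other array. The complex I genes nad4 and nad6 read 4.27 and 3.95 there, against 2.22 to 3.55 and 2.17 to 2.39 elsewhere. The maturase gene matR read 4.55 against 2.11 to 2.97. For ccmFN1, a gene of cytochrome c maturation, the values were 3.63 and 1.68 to 2.25, while its partners ccmFN2 and ccmB stayed within 1.64 to 2.24 and 2.36 to 2.88. The ccmFC probe set read 4.94, 4.34 and 2.20 in BSCs and 3.57, 3.97 and 3.28 in MCs, and without BSC array 7 it was called higher in BSCs, by 1.04. The difference of nad9, -0.29 (SE 0.12, unadjusted p = 0.0516 in limma), came from groups that did not overlap, at 2.06 to 2.16 in BSCs and 2.29 to 2.59 in MCs. The mttB probe set, for a transport protein of the inner membrane, was at 2.18 to 3.33. One mitochondrial member, 244944_s_at, is annotated to several genes and was given no name.

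The 5 members with loci of the mitochondrial copy on chromosome 2 stayed between 1.27 and 3.58 on all arrays, with differences of -0.01 to 0.33. Among the 45 members without a name, 37 stayed below 3.5 on every array. The exceptions were led by 244979_at, numbered between rpoA and rpl36, which read 7.87, 7.28 and 4.55 in BSCs and 9.25, 8.78 and 8.09 in MCs. Its difference was -2.14 (SE 0.90, unadjusted p = 0.0572 in limma). The lowest difference of the whole block belonged to 245038_at, numbered among the nuclear genes, with -2.59 (SE 1.15, unadjusted p = 0.0674 in limma). It read 5.96, 2.30 and 2.71 in BSCs and 5.32, 7.73 and 5.70 in MCs, and BSC array 3 lay above MC arrays 4 and 8.

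The 10 nuclear genes of the block had medians of 1.81 to 2.48 over the arrays. AT2G26600 is in the study's list of genes that differed between the cell types, which was drawn up on these same arrays and is no independent evidence. It read 3.82, 3.79 and 2.40 in BSCs and 2.63, 2.34 and 1.75 in MCs, the largest positive difference of the block at 1.09 (SE 0.45, unadjusted p = 0.0542 in limma). BSC array 7 overlapped the MC arrays, and without it the difference was 1.56. The next positive ones after petL were 2 members without a name, 245045_at at 0.74 (SE 0.55) and 245042_at at 0.65 (SE 0.81). Another nuclear member, AT2G26500, codes for a nuclear-encoded subunit of the cytochrome b6f complex and read 6.14, 5.25 and 2.53 in BSCs and 4.72, 6.60 and 4.85 in MCs, a difference of -0.75 (SE 1.04).

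The nuclear partners of the chloroplast complexes were read from lists of their own. Of 45 genes listed for the nuclear subunits of both photosystems, the light-harvesting complex, the cytochrome b6f complex and the ATP synthase, 13 had a named probe set, AT2G26500 among them. Where the annotation named no probe set, it was taken from the study's list of differing genes if the gene stood there. That list was drawn up on these same arrays, so the 13 were not chosen free of their values. How many of the 13 entered in this way is not given. All 13 had a lower mean in BSCs and none was called, and BSC array 7 was the lowest array for each of the 13. Without BSC array 7, 12 of the 13 kept a lower mean in BSCs. For the chloroplast genes, which were not drawn from that list, the same count was 45 of 77. The 2 sets were thus not chosen alike, and whether the 2 shares differ was not tested. The smallest p values in these lists belonged to AT3G16140, a small subunit of photosystem I, and AT4G21280, an oxygen-evolving protein of photosystem II. The former read 7.76, 5.90 and 2.80 in BSCs and 8.28, 9.06 and 7.36 in MCs, with -2.74 (SE 1.28, unadjusted p = 0.0769 in limma). The latter read 6.43, 6.41 and 3.30 in BSCs and 7.21, 8.69 and 6.70 in MCs, with -2.16 (SE 1.0, unadjusted p = 0.0770 in limma). Leaving out BSC array 7 gave -1.40 for the former and -1.12 for the latter. The study calls AT4G21280 PSBQA and reported it as higher in MCs, also by quantitative PCR on amplified RNA. In the light-harvesting list the smallest p values were those of AT3G27690 at -1.72 (SE 0.94) and AT1G61520 at -1.88 (SE 1.08).

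Among the partners outside photosynthesis, 1 of 9 sigma factors and organelle phage-type RNA polymerases had a named probe set, AT5G15700, at 2.46 to 3.10. Of 7 mitochondrial carriers, channels and cytochromes c, 3 had one. AT5G15090, a voltage-dependent anion channel of the outer mitochondrial membrane, was called lower in BSCs. It read 3.34, 2.69 and 1.77 in BSCs and 4.28, 5.38 and 3.95 in MCs, a difference of -1.94 (SE 0.53, unadjusted p = 0.0115 and adjusted p = 1 in limma), and -1.52 without BSC array 7. The groups did not overlap. AT5G15090 is also among the genes that the study reported as differing on these same arrays. Its call is therefore no independent evidence. The cytochrome c gene CYTC-2 read 4.18, 2.67 and 2.38 in BSCs and 2.11, 2.27 and 2.03 in MCs, a difference of 0.94 (SE 0.48) without a call. None of the 4 listed genes of the Rubisco small subunit had a named probe set here.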

How the data were processed

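RNA of 3 pools of bundle sheath and 3 pools of mesophyll protoplasts was hybridized to 6 ATH1 arrays. The authors used Partek Genomics Suite (6.6 in the submitters' processing notes, another version in the methods) to normalize and summarize by the robust multi-average method, and deposited 1 log2 value for each probe set. All 6 value columns were used as deposited, and 64 control probe sets were left out. The number of arrays limits the precision.

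Members were named through the array annotation and the RefSeq gene table of assembly TAIR10.1, with 8 chloroplast probe sets that list 2 entries of 1 gene named by that gene. No sequence is printed, and no coordinates, because the array's build is not given in the sources used here. The members and gene lists were chosen with earlier results of these data known. Genes in the text are members with an unadjusted p under 0.05, the 10 highest means, the 4 largest differences in each direction, up to 4 genes of each role and up to 2 of each nuclear list. The others named were chosen after their values were seen.

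Differences between the cell types were fitted with lmFit and eBayes of limma 3.58.1 (R 4.3.3, 2-sided tests) over 22746 probe sets with Benjamini-Hochberg adjustment. The fits were tested on simulated data. The alternatives tried included quantile normalization, median centring, array weights, a trended prior, the methods' t-test, filters on mean level, narrower definitions of the block and the omission of single arrays. The median and sign count of the chloroplast genes under these alternatives were added after the data were seen.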

Additional observations from a re-analysis of the deposited data

How the results depend on the processing

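The count of 4 called members was 1 by the methods' t-test (2 at its p alone, 0 after Benjamini-Hochberg adjustment), 15 with array weights, of which 6 were higher in BSCs, 7 after quantile normalization and 0 among the 69 members whose mean reached 3.5 in BSCs or MCs, where petD, rps19 and ycf2 had the same differences as before and only their p values moved. Among the 22596 other probe sets the calls moved too, from 110 to 40 by the methods' t-test, 870 with array weights, 249 after quantile normalization and 238 without BSC array 3. The count of called members ranged from 0, without MC array 6, to 11, without BSC array 3, when single arrays were left out. It was 2 without BSC array 5 and 2 without MC array 4. Of the 15 called with array weights 3 were among the 4, and of the 7 after quantile normalization 2 were. The estimation of the array weights stopped before it reached its tolerance. The weights were 0.342, 6.827 and 0.339 for BSC arrays 3, 5 and 7. They were 2.079, 0.402 and 1.515 for MC arrays 4, 6 and 8. The weighted BSC means thus rest mainly on BSC array 5. The median difference of the members, -0.14, was -1.01 among those 69 and -0.64 over the 90 members annotated to an organelle genome, but -0.06 without BSC array 7 and -0.05 with array weights. Relative to all other probe sets these were -0.82, -0.65, -0.02 and -0.02, against -0.15. The median of the chloroplast genes, -0.81, was -0.12 with array weights. The number of chloroplast genes with a lower mean in BSCs, 68 of 77, was 44 with array weights and ranged from 45 to 72 without single arrays. The log2 difference of ycf2 was 0.07 after quantile normalization. The cause of these changes was not tested. No paired analysis was run, because the labels do not state whether single arrays of the 2 cell types belong together. A pairing was therefore not tested.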
